A study of Homo sapiens with 12 samples.

Results

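The RAC1 knockout clone made with the guide sgRAC1_1 was compared with the 2 knockout clones made with the guide sgRAC1_2, gene by gene. The members were all genes with a mean of at least 1 TPM (the share of transcripts, scaled to a fixed total per library) in the sgRAC1_1 clone or over the sgRAC1_2 clones, which gave 17790 of the 56832 genes of the table. The comparison used 6 of the 12 libraries of the study. The 6 libraries of RAC1-positive lines served as a reference level and stayed out of the main fit, but entered an alternative fit over all 12 libraries.

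All libraries came from DU145, an established human prostate cancer line, grown in RPMI medium with 10% fetal bovine serum. Cells were transfected with complexes of guide RNA and Cas9 and plated singly, so that each knockout line is 1 expanded clone. sgRAC1 clone 1 carried the guide sgRAC1_1 and sgRAC1 clones 2 and 3 the guide sgRAC1_2, and all 3 are labelled as RAC1 knockout. The reference lines were parental DU145 and the non-targeting clones sgNTC clone 1 and sgNTC clone 2, all labelled wild type. Each line had 2 biological replicates, and replicate 1 was batch 1 and replicate 2 was batch 2. Guide sgRAC1_1 was thus represented by a single clone, and a difference of guide and a difference of that clone cannot be told apart.

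RAC1 is a small GTPase that cycles between a GDP-bound and a GTP-bound state under exchange factors such as VAV2 and GTPase-activating proteins. In its active form it binds PAK kinases and the WAVE complex, which starts branched actin growth at the cell edge. Guides to different sites of one gene are commonly compared because clones can differ in genes other than the target. A clone is the descent of 1 cell, and it keeps whatever copy number and gene activity that cell had.

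The number of genes listed above 0 was 21141 to 22661 in the 6 knockout libraries. TPM keeps no sequencing depth, so the depth is unknown. Among the reference libraries, sgNTC clone 2 replicate 1 stood apart with 13608 genes above 0. Counts of genes by their place against the reference, and the chromosome 9 medians, are given with and without it. The reference ranges of single genes include it unless stated. Markers of the DU145 line (the epithelial keratins, EPCAM and CDH1, and the mesenchymal gene VIM) were above the filter for 7 of 7 genes. Their summed level was 734 to 840 TPM in clone 1 and 657 to 1034 TPM in the sgRAC1_2 clones. Of this, VIM made up 216 and 221 TPM in clone 1 and 165 to 217 TPM in the sgRAC1_2 clones. Of 10 genes of the prostate luminal lineage 6 were at 0 in all 6 libraries, and all fibroblast and endothelial markers were under 1 TPM in all 6.

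RAC1 itself was at 47.5 and 36.5 TPM in the libraries of clone 1, at 59.2 and 54.2 in clone 2, and at 39.6 and 40.3 in clone 3. The RAC1-positive libraries ran from 149 to 202 TPM. The means were 42.0 TPM (n = 2) for the sgRAC1_1 clone and 48.3 ± 9.89 (SD, n = 4) for the sgRAC1_2 clones, which is 24.4% and 28.1% of the RAC1-positive mean of 172 ± 20.3 (SD, n = 6). The clones of the 2 guides overlapped in RAC1 RNA, and an exact permutation test of the libraries gave a two-sided p of 0.533, where the smallest p that 2 against 4 libraries allow is 0.133. RAC2, the hematopoietic paralog, was at 6.31 and 7.59 TPM in clone 1 and at 5.65 to 8.52 in the sgRAC1_2 clones, and RHOG, another GTPase of this family, was at 19.2 and 17.5 against 17.2 to 21.5, so neither separated the guides. RAC3 was at 0.299 and 2.24 TPM in clone 1 and at 0.402 to 0.942 in the sgRAC1_2 clones.

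The first question was how many genes differed between the guides. In limma on log2(TPM + 1), with a mean per clone, 0 of 17790 genes (0%) passed an adjusted p of 0.05 between clone 1 and the mean of clones 2 and 3, and 1263 genes (7.1%) were under an unadjusted p of 0.05. The lowest adjusted p was 0.0562, shared by 6 genes. A fit over all 12 libraries, with more libraries behind its estimate of spread, called 20 genes, a fit with the guide as the group called 11, and with a filter of 5 TPM 7 genes passed. Against clone 3 alone 3 genes passed (0.0169%), each at an adjusted p of 0.0320 in limma: RSPO3 was higher in clone 1, and FGB and SERPINB5 were lower. Blocking on the replicate number took these calls away, with a lowest adjusted p of 0.0514, as did leaving out any 1 library of clone 2 or 3. Against clone 2 alone 0 genes passed, 1117 (6.28%) were under an unadjusted p of 0.05, and against clone 3 1321 (7.43%) were. Between clones 3 and 2 it was 0 and 990 genes (5.56%). In the fits with a mean per clone, the error behind the p-values is the difference between the 2 libraries of each clone, and says nothing of other clones with the same guide. The fit with the guide as the group treats the 4 libraries of clones 2 and 3 as replicates of 1 guide.

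As so few genes passed, genes are also described by whether their libraries overlapped, a rule chosen after the test results were seen. A gene is called apart here where both libraries of clone 1 lay on the same side of all 4 sgRAC1_2 libraries. By this rule 1460 genes (8.21%) were higher and 1347 (7.57%) lower in clone 1, 2807 in all (15.8%). For libraries in random order the chance of being apart either way is 0.133, the smallest two-sided p of the exact permutation test. The share of 15.8% was little above that. With a difference of at least 1 on the log2(TPM + 1) scale as well, 246 genes (1.38%) were higher and 187 (1.05%) lower, 433 in all (2.43%). Most of them were faint or had only clone-based names. Of 10576 protein-coding genes 93 were apart by at least 1 (0.879%), 59 of them higher and 34 lower, while 277 of 5419 genes with a clone-based name or no position (5.11%) and 34 of 864 small RNA genes (3.94%) were.

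Genes apart by at least 1 were counted in the same way between single clones, with 2 libraries on each side. Clones 1 and 2 differed in 837 genes (4.7%), clones 1 and 3 in 900 (5.06%) and clones 2 and 3, which share a guide, in 700 (3.93%). Among genes at a mean of 10 TPM or more the counts were 135, 148 and 107. The SD of the log2 differences over all genes was 0.55 between clones 1 and 2, 0.57 between clones 1 and 3, and 0.53 between clones 2 and 3. Those were differences between means of 2 libraries. Pairs of single libraries, where nothing is averaged, spread more, and the 2 kinds of SD cannot be set against each other. The SD was 0.736 to 0.756 between the 2 libraries of a clone, 0.684 to 0.800 between clones of the shared guide in the same batch, and 0.706 to 0.838 between clones of different guides in the same batch. The libraries of a clone were always from different batches, and among pairs from different batches the SD was 0.748 to 0.759 between clones of the shared guide and 0.763 to 0.784 between clones of different guides. On that footing all 4 pairs of different guides spread slightly more over all genes than the 3 pairs of a single clone, and pairs from the same batch ranged more widely than either. Among genes at a mean of 10 TPM or more over the 6 libraries, the ranges between batches overlapped. They were 0.450 to 0.481 for different guides, 0.451 to 0.460 for clones of the shared guide and 0.401 to 0.455 for a single clone.

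**Figure D1:**
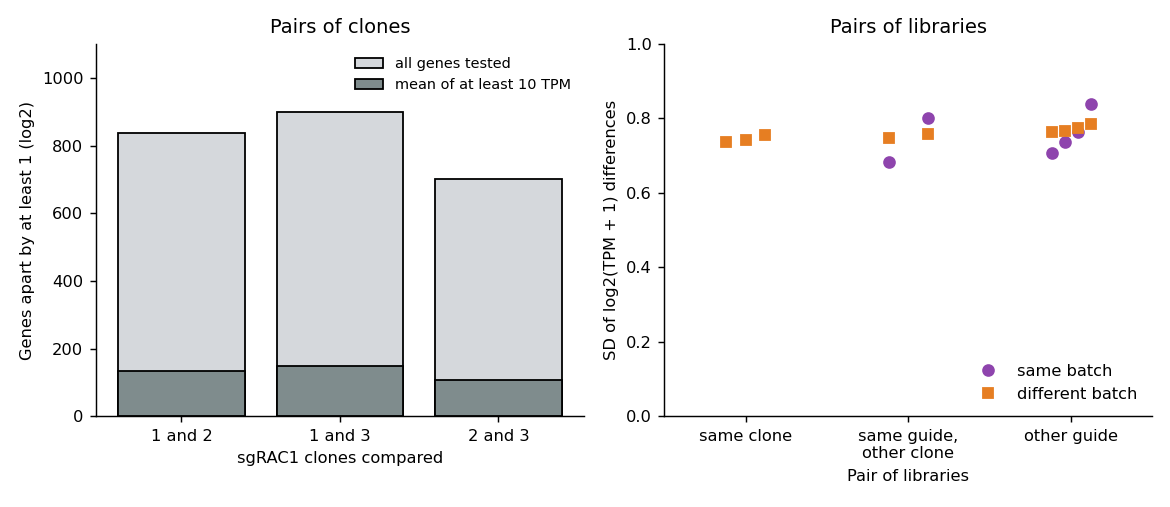
Left, the number of genes apart by at least 1 on the log2(TPM + 1) scale for each pair of sgRAC1 clones, for all genes tested and for those with a mean of at least 10 TPM. Right, the SD over genes of the log2(TPM + 1) difference for each pair of single libraries. The pair that shares guide sgRAC1_2, clones 2 and 3, has 700 genes apart, against 837 and 900 for the pairs of different guides. Among library pairs from different batches, those of the same clone lie at 0.736 to 0.756 and those of different guides at 0.763 to 0.784.

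The genes described one by one are the 12 per direction with the smallest p among genes apart. All 24 had adjusted p-values from 0.0562 to 0.172 in limma, so none passed on the 6 libraries.  In the fit over all 12 libraries 12 of the 24 passed. None turned direction under the alternatives run, where the filter of 5 TPM kept 22 of them. As the genes were picked for being apart, leaving out libraries or changing the pseudocount could not turn them. The kept direction is thus no test of how firm they are.

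The promoters of several of these genes are shown first because they include MORC4 and CLDN2, neighbours that were both higher in clone 1. FGB is shown with its neighbour FGA, which is not among the genes picked by smallest p. FGA was at 0 and 0.540 TPM in clone 1, at 0.579 and 0.921 in clone 2 and at 8.37 and 4.24 in clone 3. Its adjusted p in limma was 0.463, and only clone 3 stood well above clone 1. MORC4 and CLDN2 lie on the same stretch of the X chromosome, FGB and FGA next to each other on chromosome 4. Each sequence is the 250 bases before the gene's start in RefSeq (GRCh38.p14), read 5′ to 3′ on the gene's strand. Capitals mark CG dinucleotides, the sites of DNA methylation, in the first 3 (MORC4 at chrX:107000213-107000462, minus strand; CLDN2 at chrX:106899914-106900163, plus strand; SERPINB5 at chr18:63476708-63476957, plus strand).
MORC4: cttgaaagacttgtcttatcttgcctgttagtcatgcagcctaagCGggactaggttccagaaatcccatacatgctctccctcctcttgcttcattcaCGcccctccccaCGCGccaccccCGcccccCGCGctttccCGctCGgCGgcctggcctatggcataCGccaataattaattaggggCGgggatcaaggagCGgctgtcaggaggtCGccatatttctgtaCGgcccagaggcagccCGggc
CLDN2: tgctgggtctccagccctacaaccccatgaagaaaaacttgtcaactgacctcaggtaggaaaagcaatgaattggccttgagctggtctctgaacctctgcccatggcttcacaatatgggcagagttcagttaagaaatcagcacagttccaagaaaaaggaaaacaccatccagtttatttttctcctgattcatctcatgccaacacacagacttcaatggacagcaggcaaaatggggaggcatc
SERPINB5: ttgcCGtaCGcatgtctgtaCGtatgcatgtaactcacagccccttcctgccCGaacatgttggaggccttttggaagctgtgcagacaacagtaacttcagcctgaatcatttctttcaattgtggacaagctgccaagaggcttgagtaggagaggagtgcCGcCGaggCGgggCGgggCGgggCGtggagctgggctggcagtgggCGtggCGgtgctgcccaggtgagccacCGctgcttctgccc

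The MORC4 window held 16 CG dinucleotides, that of SERPINB5 13 and that of CLDN2 0. Over the 8424 genes kept that have a RefSeq promoter the median was 21, with quartiles of 14 and 28. Of the 24 genes 14 had a promoter in the table, 8 higher with a median of 12 CG and 6 lower with a median of 8. These medians include windows far from the gene's start in GENCODE. The distance was 135742 bases for CNTN1, 9023 for IFI16 and 1004 for DIRAS3. For FGB (chr4:154562730-154562979, plus strand) and FGA (chr4:154590743-154590992, minus strand), capitals mark the letters GTTAAT, the half-site of hepatocyte nuclear factor 1, searched on both strands.
FGB: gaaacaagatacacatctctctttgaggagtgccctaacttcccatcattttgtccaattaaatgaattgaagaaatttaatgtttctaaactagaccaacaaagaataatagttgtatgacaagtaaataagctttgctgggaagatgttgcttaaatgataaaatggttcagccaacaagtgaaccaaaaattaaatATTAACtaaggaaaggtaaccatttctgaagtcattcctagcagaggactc
FGA: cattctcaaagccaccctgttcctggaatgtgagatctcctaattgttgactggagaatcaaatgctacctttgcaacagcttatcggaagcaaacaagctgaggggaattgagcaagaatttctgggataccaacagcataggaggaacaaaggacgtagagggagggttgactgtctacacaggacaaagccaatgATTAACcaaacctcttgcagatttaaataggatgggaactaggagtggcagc

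Both windows read ATTAAC once, the reverse complement of GTTAAT. The window of IFI16, another of the lower genes, also held the letters in one orientation. Its RefSeq start lay 9023 bases from the gene's start in GENCODE, against 24 bases for FGB and for FGA. The IFI16 window may thus belong to another transcript start. One or both orientations occurred in 266 of the 8424 promoters (3.16%). A match of letters is a description and shows no binding.

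Of the genes higher in clone 1, those of signalling pathways are given first. RSPO3, a secreted R-spondin that strengthens Wnt signalling through LGR receptors, was at 19.9 and 23.0 TPM in clone 1. It was at 3.78 and 5.54 TPM in clone 2 and at 0.386 and 0.603 in clone 3, and at 0 to 1.22 in the RAC1-positive libraries. Clone 1 was above all other libraries, and clone 2 was above clone 3. The difference from the sgRAC1_2 clones was 2.96 (SE 0.22) on the log2(TPM + 1) scale, with an adjusted p of 0.0562.

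TGFBR1, the type I receptor kinase for TGF-beta, was at 101 and 98.4 TPM in clone 1 against 31.1, 26.9, 23.4 and 31.2 in clones 2 and 3. The RAC1-positive libraries spanned 26.4 to 56.0 TPM, so the sgRAC1_2 clones were near the reference and clone 1 was above it. The difference was 1.80 (SE 0.16, adjusted p = 0.0790). TGFBR1 lies at chr9:99104038-99154192 (GENCODE 29, GRCh38), on the part of chromosome 9 described further on.

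Adhesion and junction genes followed. CNTN1, a GPI-anchored contactin of the immunoglobulin type, was at 48.3 and 31.4 TPM in clone 1 and at 2.90 to 5.63 in the sgRAC1_2 clones, with 1.18 to 4.10 in the reference. CLDN2, a claudin that forms cation pores in tight junctions, was at 9.36 and 16.9 TPM in clone 1. It was at 0 to 0.356 TPM in the sgRAC1_2 clones and at 0 to 0.257 in the reference, so that clone 1 was the only line with a level above 1 TPM. The differences were 2.82 (SE 0.27) for CNTN1 and 3.55 (SE 0.33) for CLDN2, both with an adjusted p of 0.0790.

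MORC4, a chromatin-associated ATPase of the MORC family, was at 25.4 and 22.9 TPM in clone 1. The sgRAC1_2 clones had 4.36 to 6.24 TPM and the reference 2.53 to 4.91. The difference was 2.03 (SE 0.16, adjusted p = 0.0562). CLDN2 (chrX:106900164-106930861, plus strand) lies inside the span of MORC4 (chrX:106813871-107000244, minus strand), and in the basic set of GENCODE 29 their exons share 0 bases. No source used here gives the strand setting of the authors' counting, and reads from introns of MORC4 and from CLDN2 may not be separable.

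DIRAS3, an imprinted Ras-related gene known to restrain growth, was at 6.93 and 6.29 TPM in clone 1. It was at 0 in 3 of the 4 sgRAC1_2 libraries and at 0.235 TPM in the remaining one, and in the reference at 0 in 5 libraries and at 0.106 in the sixth. This on-or-off pattern, with both libraries of one side at 5 TPM or more and the other side under 0.5 TPM, was seen in 5 genes present in clone 1 and in 1 gene absent from it. Of the 5, CLDN2 and DIRAS3 code for proteins, and RNU5A-1, RNA5SP364 and RF00151 are small RNA genes. RNU5A-1 was at 11.8 and 11.1 TPM in clone 1 and at 0 in all 4 sgRAC1_2 libraries, but it was at 0 in 3 of the 6 reference libraries and at up to 15.1 TPM in the others.

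For some genes clone 1 was the knockout line nearest to the reference. FMR1, which encodes the RNA-binding protein FMRP, was at 9.51 and 9.44 TPM in clone 1, at 1.86 and 1.91 in clone 2 and at 0.963 and 0.806 in clone 3. The reference had 7.67 to 20.1 TPM, so the sgRAC1_2 clones were below it and clone 1 was inside it. The difference was 2.17 (SE 0.20, adjusted p = 0.0790). GSTP1, a glutathione transferase, gave the same order with a wider gap between the clones of 1 guide: 45.8 and 56.1 TPM in clone 1, 13.5 and 19.7 in clone 2, 2.25 and 0.502 in clone 3 and 39.7 to 129 in the reference, with a difference of 3.06 (SE 0.35, adjusted p = 0.116). DNAJC15, a mitochondrial co-chaperone, was at 7.20 and 6.85 TPM in clone 1 and at 0.0600 to 0.570 in the sgRAC1_2 clones, with 1.71 to 5.09 in the reference, so that the 2 guides lay on opposite sides of it.

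The other genes of this direction were BICC1, an RNA-binding protein, with 78.4 and 96.5 TPM in clone 1 and 22.9 to 40.1 in the sgRAC1_2 clones, and CSGALNACT1, an enzyme of chondroitin sulfate synthesis, with 8.73 and 9.61 against 0.559 to 1.38. Of the genes outside the 24, named here after their values were seen, GJA1 (the gap junction protein connexin 43) was at 14.4 and 14.8 TPM in clone 1 and at 0 to 2.37 in the sgRAC1_2 clones. MMP1, an interstitial collagenase, was at 131 and 67.7 TPM in clone 1, at 16.9 and 21.9 in clone 2 and at 5.92 and 17.8 in clone 3, while the reference ran from 19.3 to 147. The 2 clone 1 libraries differed by more for MMP1 than for most genes named here, and the difference of 2.65 (SE 0.46) had an adjusted p of 0.297.

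Among genes lower in clone 1, SERPINB5, the serpin family protein maspin of epithelial cells, was at 1.27 and 2.28 TPM in clone 1. It was at 18.9 and 18.3 TPM in clone 2 and at 30.5 and 36.0 in clone 3, against 0.132 to 2.15 in the reference. Both sgRAC1_2 clones were above every other library of the study, and the upper clone 1 library was just above the reference. The difference was -3.25 (SE 0.20, adjusted p = 0.0562). SERPINB7, another serpin gene further along chromosome 18 and not among the 24, was at 2.25 and 2.27 TPM in clone 1. It was at 6.22 to 10.9 TPM in the sgRAC1_2 clones. The reference spanned 2.04 to 15.5 TPM, and 2.04 to 7.35 without sgNTC clone 2 replicate 1. With that library counted, only SERPINB5 set the sgRAC1_2 clones off from the reference. Without it, only the lower clone 2 library, at 6.22 TPM, was inside the SERPINB7 range.

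ENPP5, of the family of ectonucleotide pyrophosphatases and phosphodiesterases, was at 0.321 and 0 TPM in clone 1, the 1 gene absent from it by the rule of 5 and 0.5 TPM. The values were 7.65 and 5.27 TPM in clone 2, 17.4 and 13.2 in clone 3 and 0 to 3.33 in the reference. The difference was -3.25 (SE 0.25, adjusted p = 0.0562).

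FGB, the beta chain of fibrinogen, the plasma protein that forms clots, was at 3.03 and 5.84 TPM in clone 1. Clone 2 had 16.3 and 15.2 TPM, clone 3 had 96.9 and 116, and the reference 11.3 to 45.3. Clone 1 was below every reference library, clone 2 inside the range and clone 3 above it. Without sgNTC clone 2 replicate 1 the range began at 15.6 TPM, between the 2 libraries of clone 2. The difference of -3.01 (SE 0.24, adjusted p = 0.0562 in limma) averaged the unlike clones 2 and 3. FGA and FGG, the other chains, were highest in clone 3, where FGA was at 8.37 and 4.24 TPM and FGG at 15.5 and 5.06. In all other libraries of this comparison both were at 1.01 TPM or less.

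IFI16, an interferon-inducible DNA sensor, was at 0.172 and 0.161 TPM in clone 1, at 4.33 and 4.13 in clone 2, at 4.75 and 6.34 in clone 3 and at 0 to 1.02 in the reference. The difference was -2.32 (SE 0.23, adjusted p = 0.0926). LGALS3BP, a secreted glycoprotein that binds galectins, was at 1.15 and 1.91 TPM in clone 1, at 5.11 and 4.91 in clone 2, at 24.5 and 16.7 in clone 3 and at 0.168 to 2.85 in the reference. CLGN, a chaperone of the endoplasmic reticulum, was at 1.75 and 1.78 TPM in clone 1 and at 6.08 to 12.6 in the sgRAC1_2 clones. The remaining lower genes were RP11-443P15.2 and AC074389.9, which have only clone-based names, and 4 small RNA genes that were at 0 in clone 1 and at 3.43 to 16.1 TPM in the sgRAC1_2 clones.

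**Figure D2:**
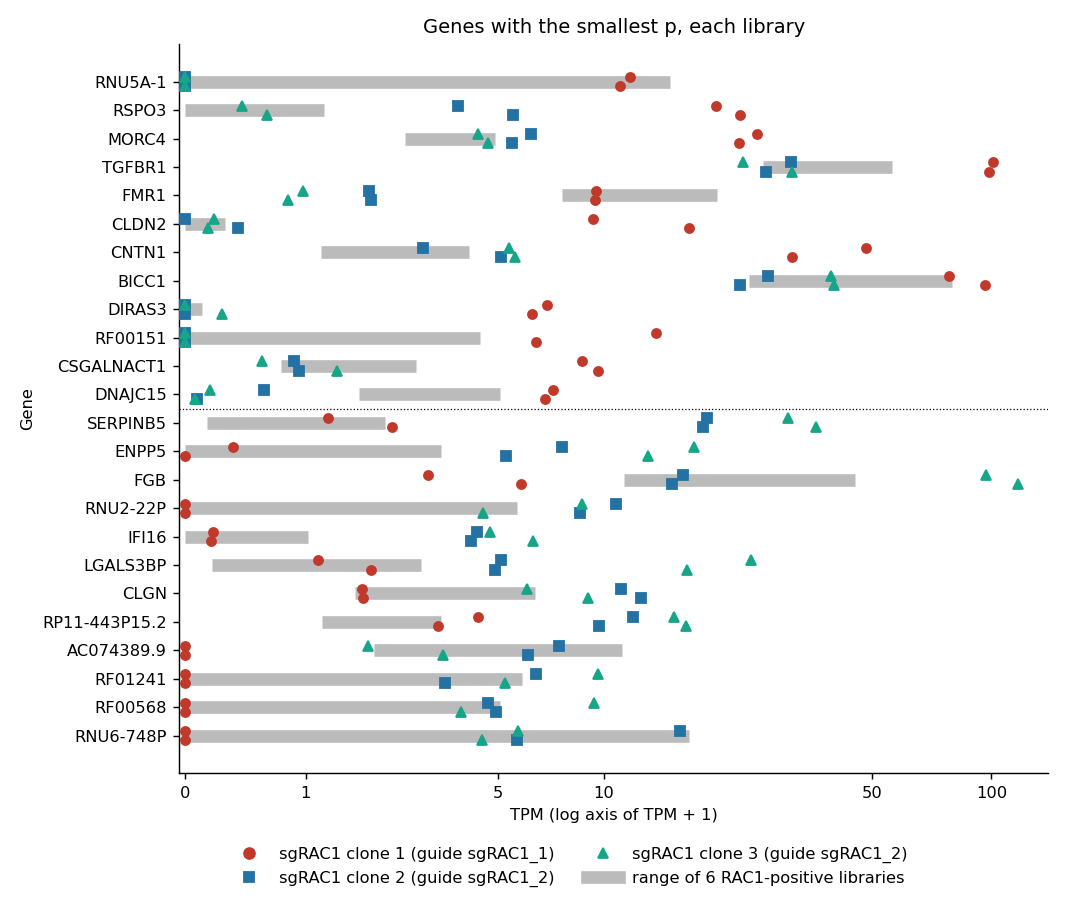
TPM of the 12 genes per direction with the smallest p, on a log axis of TPM + 1, for each library of clone 1 (circles), clone 2 (squares) and clone 3 (triangles), with the range of the 6 RAC1-positive libraries as a grey bar. Above the dotted line, RSPO3 at 19.9 and 23.0 TPM and TGFBR1 at 101 and 98.4 in clone 1 lie right of the grey bar, and below it SERPINB5 at 18.3 to 36.0 in the sgRAC1_2 clones does.

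The 433 genes apart by at least 1 were then sorted by the RAC1-positive level. Here the range is that of the means of the 3 RAC1-positive lines. For 130 genes (30%) clone 1 had its mean outside the range and both sgRAC1_2 clones inside it, against 9.74% of all genes kept. For 68 genes (15.7%) clone 1 was inside and the sgRAC1_2 clones outside on the same side, against 7.42% of all genes. The guides lay on opposite sides of the range for 60 genes (13.9%, against 1.84%). With sgNTC clone 2 replicate 1 left out, the counts in this order were 140, 75 and 56. The rule picked genes that differ between guides, so these shares describe the 433 genes and test nothing. Genes higher in clone 1 were more often those where clone 1 stood outside (96 of 246, against 18 where the sgRAC1_2 clones did), and genes lower in clone 1 more often those where the sgRAC1_2 clones did (50 of 187, against 34). Without the library that stood apart, the counts were 87 and 38 for higher genes and 37 and 53 for lower genes, so the order for lower genes turned and rested on sgNTC clone 2 replicate 1.

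**Figure D3:**
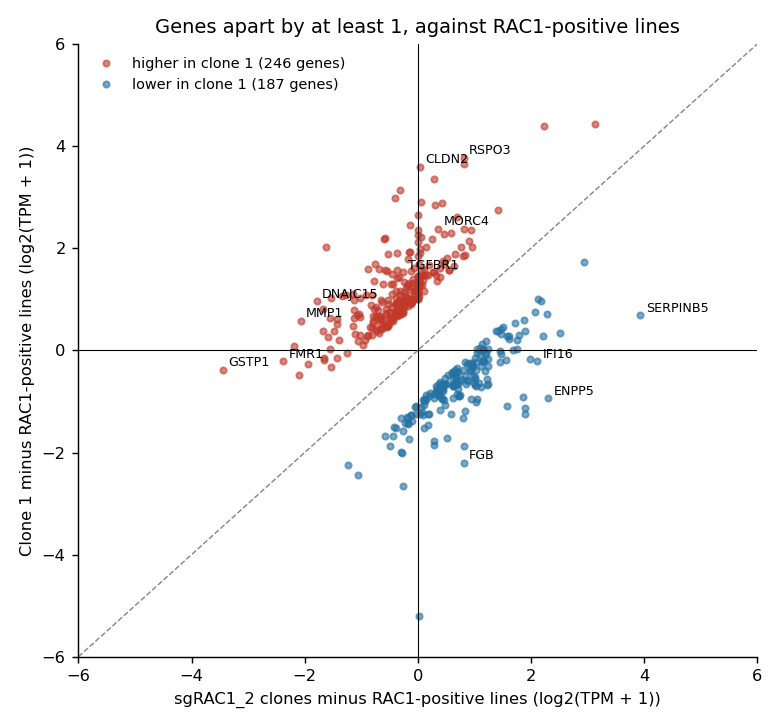
Each point is 1 of the 433 genes apart by at least 1, with the mean difference of the sgRAC1_2 clones from the RAC1-positive lines on the x axis and that of clone 1 on the y axis, both on the log2(TPM + 1) scale. Points on the dashed line would have equal levels in clone 1 and in the sgRAC1_2 clones, and the 246 genes higher in clone 1 lie above it and the 187 lower genes below it.

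Gene lists for processes of these cells were counted by the same rule, and the median difference of all genes was 0.00 on the log2 scale. No member of any list passed an adjusted p of 0.05 in limma. The lists that hold RAC1's own pathway were close to the background of 8.21% higher and 7.57% lower. Of 26 Rac exchange factors and GTPase-activating proteins 3 were higher and 3 lower, among them VAV2, at 3.85 and 2.71 TPM in clone 1 against 1.28 to 2.61 in the sgRAC1_2 clones. Of 29 Rac effectors and subunits of WAVE and Arp2/3 only CYBA, a subunit of NADPH oxidase, was higher. Of 11 EGFR family genes 0 were apart.

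**Figure D4:**
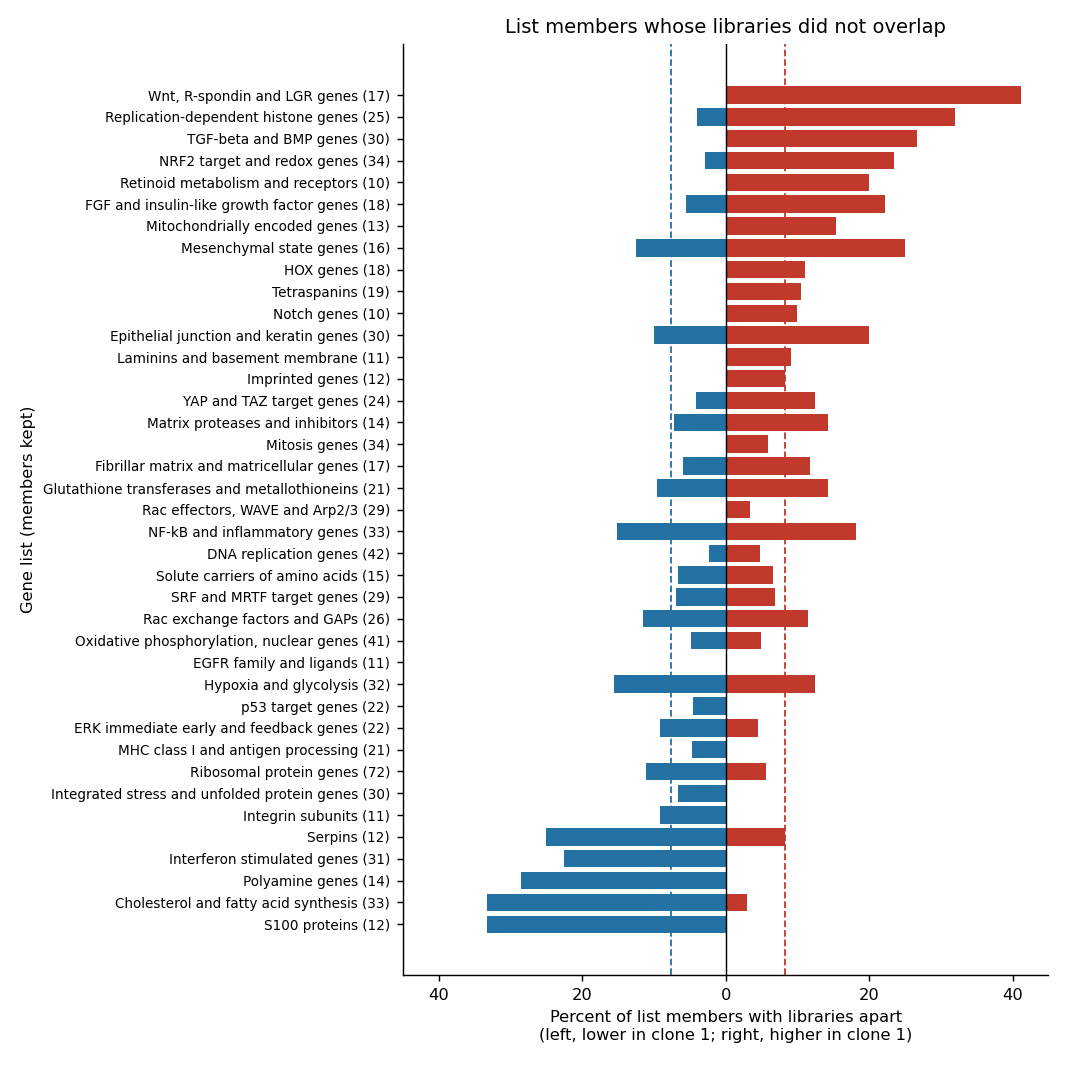
For gene lists with at least 10 genes kept (number in parentheses), the percent of members whose 2 clone 1 libraries lay above (right) or below (left) all 4 sgRAC1_2 libraries. Dashed lines give the same share over all genes, 8.21% higher and 7.57% lower; Wnt, R-spondin and LGR genes have 7 of 17 members to the right and cholesterol and fatty acid synthesis genes 11 of 33 to the left.

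Wnt, R-spondin and LGR genes had 7 of 17 members higher and 0 lower, with a median difference of 0.15, and of 0.30 and 0.09 against clones 2 and 3. Beside RSPO3 these were its receptor LGR4 (23.7 and 23.8 TPM in clone 1, 12.2 to 16.8 in the sgRAC1_2 clones), the receptors FZD7 and LRP5, and DKK1, DKK3 and SFRP1, of which DKK1 and SFRP1 are secreted inhibitors of Wnt. DKK1 was the most abundant, with a mean of 304 TPM in clone 1, 171 in the sgRAC1_2 clones and 226 in the reference. So members that promote and members that restrain the pathway were on the same side.

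TGF-beta and BMP genes had 8 of 30 members higher and 0 lower, with a median of 0.20. The 8 were the receptors TGFBR1 and BMPR1A, the signal carriers SMAD2 and SMAD4, the inhibitors SMAD7 and GREM1, LTBP1, which anchors latent TGF-beta in the matrix, and ID2, a target of BMP signalling. ID2 was at 79.0 and 86.4 TPM in clone 1, at 56.6 and 62.2 in clone 2 and at 47.0 and 38.9 in clone 3, and the reference ran from 56.4 to 118. The medians against clones 2 and 3 separately were 0.15 and 0.21.

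Replication-dependent histone genes had 8 of 25 members higher and 1 lower, with a median of 0.49, but it was 0.78 against clone 2 and 0.17 against clone 3. HIST2H2AA3 was at 518 and 579 TPM in clone 1, at 257 and 222 in clone 2, at 493 and 338 in clone 3 and at 79.0 to 140 in the reference. HIST2H2AA4 is a near-identical copy, and how the counting divided reads between them is not known. Histone transcripts mostly lack poly(A) tails, and how the RNA was primed is not given in the labels. NRF2 target and redox genes had 8 of 34 members higher, among them TXN (thioredoxin), GCLC and PGD, and 1 lower, FTL (ferritin light chain), at 6170 and 8202 TPM in clone 1 and 10487 to 13920 in the sgRAC1_2 clones. Their median was 0.11 (0.17 and 0.01 against clones 2 and 3).

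Cholesterol and fatty acid synthesis genes had 11 of 33 members lower and 1 higher, with a median of -0.28, and of -0.19 and -0.37 against clones 2 and 3. Among those apart and lower were the sterol pathway enzymes ACAT2, PMVK, IDI1, FDPS, FDFT1, MSMO1, NSDHL, HSD17B7 and EBP, and the desaturase FADS1; ELOVL6, which lengthens fatty acids, was higher. PMVK was at 56.3 and 68.4 TPM in clone 1 and at 73.4, 96.8, 117 and 105 in the sgRAC1_2 clones, a difference of -0.63 (SE 0.16, adjusted p = 0.472 in limma). The means of FDPS were 129 TPM in clone 1, 170 in the sgRAC1_2 clones and 127 in the reference, and those of MSMO1 were 152, 197 and 138. The differences were small, from -0.16 to -0.63 over the 11 genes.

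Interferon stimulated genes had 7 of 31 members lower and 0 higher, with a median of -0.30. The median was -0.02 against clone 2 and -0.61 against clone 3. For IFI16 the differences were -2.16 from clone 2 and -2.48 from clone 3. The other 6 were IFIT1, IFIT2, IFI44, ISG20, IFITM1 and IFITM3. The means of IFIT1 were 14.4 TPM in clone 1, 28.9 in the sgRAC1_2 clones and 4.84 in the reference, and those of IFIT2 were 14.2, 29.6 and 4.39. IFITM1 and IFITM3 are neighbours on chromosome 11 and near copies of each other, and their values are uncertain for that reason. MHC class I and antigen processing genes had 1 of 21 members lower and 0 higher, with medians of 0.14 and -0.39 against clones 2 and 3.

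S100 proteins, small calcium-binding proteins, had 4 of 12 members lower and 0 higher. S100A11 was at 2709 and 2668 TPM in clone 1 and at 3022 to 3158 in the sgRAC1_2 clones, a small difference of -0.20 (SE 0.06). Polyamine genes had 4 of 14 lower, among them OAZ1, the antizyme that restrains polyamine synthesis. Epithelial junction and keratin genes had 6 of 30 higher and 3 lower, and the claudins went both ways: CLDN1 had means of 27.1 TPM in clone 1 and 18.2 in the sgRAC1_2 clones, and CLDN4 had 6.77 and 14.1. DSP, the desmosomal plaque protein desmoplakin, was at 5.56 and 5.12 TPM in clone 1 and at 0.332 to 2.16 in the sgRAC1_2 clones. Of 72 ribosomal protein genes 4 were higher and 8 lower. Of 42 DNA replication genes 2 were higher and 1 lower, of 34 mitosis genes 2 and 0, of 41 nuclear genes of oxidative phosphorylation 2 and 2, and of 29 SRF and MRTF target genes 2 and 2, shares at or below the background.

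Genes were also ordered along the chromosomes, and 12316 of the 12454 kept genes with a symbol (98.9%) had a position in GENCODE 29 on GRCh38. In windows of 10 Mb with at least 20 genes, 238 in all, the 6 highest medians were all on chromosome 9, in the 6 windows from 80 to 140 Mb. Their medians were 0.41, 0.40, 0.46, 0.29, 0.25 and 0.27 in order along the chromosome. The lowest window median of the genome was -0.15. On chromosome 9 the windows from 0 to 10 Mb and from 30 to 40 Mb, on the short arm, had medians of 0.02 and -0.04. The windows from 60 to 70 Mb and from 70 to 80 Mb held 18 genes each and had medians of 0.27 and 0.32.

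From 80 Mb on, 157 of 345 genes (45.5%) were apart and higher and 4 lower, and 295 (85.5%) had a difference above 0. On the other chromosomes 7.77% were apart and higher and 49.2% had a difference above 0. The stretch thus held 157 of the 1095 placed genes that were apart and higher in clone 1. The median difference was 0.32, and it was 0.32 against clone 2 and 0.26 against clone 3, while clones 3 and 2 differed by 0.04 there. In batch 1 alone and in batch 2 alone the median was 0.30 and 0.29. The boundary at 80 Mb was chosen after the window values were seen, so the shares describe a stretch that was picked for its high medians.

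The same stretch was compared with the reference. Over the 345 genes the median difference from the mean of the RAC1-positive lines was 0.05 in clone 1, -0.26 in clone 2 and -0.22 in clone 3, and it was -0.03, 0.00 and 0.03 in parental DU145, sgNTC clone 1 and sgNTC clone 2. By library it was 0.03 and 0.06 in clone 1, -0.28 and -0.24 in clone 2, and -0.26 and -0.17 in clone 3, against -0.08 to 0.06 in the 6 reference libraries. Both libraries of each sgRAC1_2 clone were below all other 8 libraries of the study. Leaving out sgNTC clone 2 replicate 1 gave 0.05, -0.26 and -0.22 for the 3 knockout clones.

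**Figure D5:**
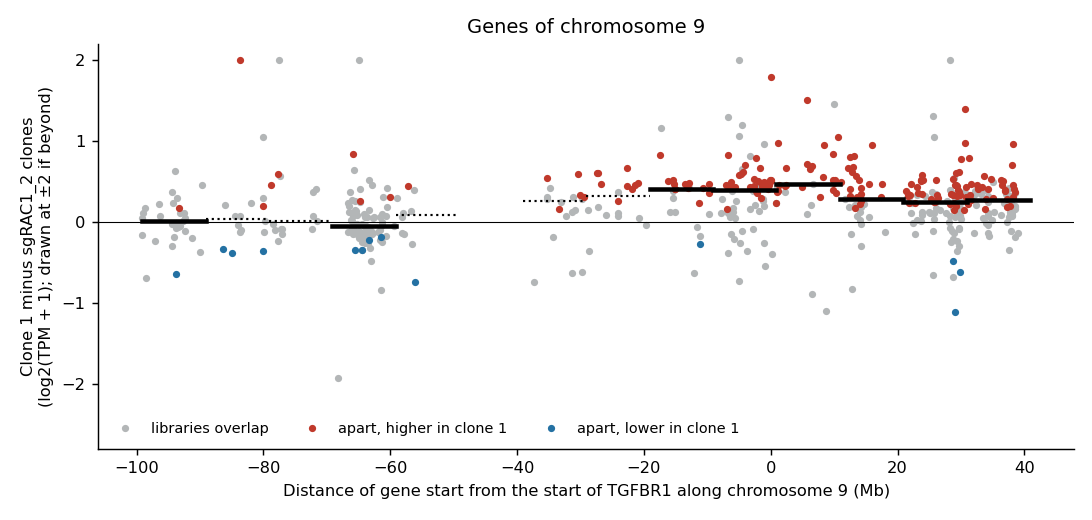
Each point is 1 of the 530 genes of chromosome 9 by its distance from the start of TGFBR1 and its difference between clone 1 and the sgRAC1_2 clones on the log2(TPM + 1) scale. Bars are medians of 10 Mb windows, dotted where a window held fewer than 20 genes. On the right, in the windows from 80 Mb on, the medians are 0.25 to 0.46, and the 2 solid bars on the left are at 0.02 and -0.04.

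Several genes named above lay on this stretch. Of the 14 list members there, 9 were apart and higher and 1 lower. The 9 were TGFBR1, TXN, VAV2, NRARP, SEMA4D, TNC and the ribosomal protein genes RPL7A, RPL12 and RPL35, and the lower one was LCN2, which encodes a secreted iron-siderophore binding protein. Of the 4 ribosomal protein genes that were higher in clone 1 these 3 were thus the list's members on the stretch. RPL7A was at 682 and 664 TPM in clone 1 and at 529, 503, 500 and 492 in the sgRAC1_2 clones, against 614 to 738 in the reference. TXN was at 4812 and 4850 TPM in clone 1 and at 3252 to 3810 in the sgRAC1_2 clones, against 4219 to 5557 in the reference. Both were inside the reference in clone 1 and below it in clones 2 and 3. TGFBR1, ABCA1 and TNC were not of this kind, since clone 1 was above the reference: ABCA1, the cholesterol exporter, was at 20.2 and 18.5 TPM in clone 1, at 5.35 to 7.89 in the sgRAC1_2 clones and at 2.79 to 12.6 in the reference, and TNC, the matrix protein tenascin C, at 27.5 and 22.7, 10.6 to 13.8 and 6.95 to 10.6.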

How the data were processed

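RNA was sequenced from 12 libraries of DU145 lines after SMARTScribe reverse transcription and tagmentation, per the labels' protocols. The authors deposited TPM values per gene. STAR 2.6.1d, bcl2fastq, DESeq2 and build GRCh38 are named in the submitters' processing notes. No counting tool, strand setting or annotation is given in the sources used here. Genes with a mean of at least 1 TPM in clone 1 or over the sgRAC1_2 libraries were fitted on log2(TPM + 1) with limma 3.58.1 (R 4.3.3; a mean per clone over 6 libraries, eBayes with trend, Benjamini-Hochberg adjustment over all genes kept, threshold 0.05). Differences are on that scale, which understates the change of genes with few TPM. Samples were grouped by the guide and clone in the labels. The genes described one by one were to be those past the test in the main and both single-clone contrasts, filled, where fewer passed, by the smallest p among genes with libraries apart up to 12 per direction, and all 24 came from the filling. Other genes were named from the lists, the chromosome windows and the neighbours of named genes, after their values were seen. Some members of these lists, and some lists, are not reported here. The members and lists were chosen with earlier results of these data known. Positions came from GENCODE 29 by symbol or older symbol, and promoters from RefSeq. The fit was tested on simulated data of the same size, with 200 genes changed among 17790. The share recovered was 0.8% at 1.5-fold, 16.8% at 2-fold, 78% at 4-fold and 97.6% at 8-fold. The changed genes were drawn from those at about 5 TPM or more, and the folds were of TPM + 1. All clones were otherwise given the same mean. Recovery of fainter genes, or with clones that differ among themselves, was not tested. Depth is unknown, so no counting interval is given.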

Additional observations from a re-analysis of the deposited data

Results flagged for a closer look

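In 5 of 54 groups of libraries examined, 1 library was flagged by a rule meant to flag about 1 group in 20 by chance. Some flags among 54 groups are thus to be met by chance alone. The rate does not hold where all other libraries were at 0, as for DIRAS3 and RF00151 below, since any level above 0 is then flagged. RAC2 was at 2.02 TPM in sgNTC clone 2 replicate 1, the library with the fewest genes above 0, against 3.32 to 4.33 in the other RAC1-positive libraries. CNTN1 was at 2.90 TPM in sgRAC1 clone 2 replicate 1 and at 5.11 to 5.63 in the other sgRAC1_2 libraries, all of them below clone 1. DIRAS3 was at 0.235 TPM in sgRAC1 clone 3 replicate 2 and at 0.106 TPM in sgNTC clone 1 replicate 2, and at 0 in the other libraries of those groups. RF00151, a small RNA gene present in clone 1 alone among the knockout lines, was at 4.42 TPM in replicate 1 of parental DU145 and at 0 in the other RAC1-positive libraries.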

How the results depend on the processing

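The count of 0 genes between the guides was 20 with all 12 libraries in the fit, 11 with the guide as the group, 7 when genes needed 5 TPM, and 5 with a pseudocount of 5. It ranged from 0 to 283 when single libraries were left out (243 without clone 1 replicate 1, 283 without replicate 2), and was 497 in batch 1 alone and 457 in batch 2 alone, where a lone library is assumed to vary like the others. Of the 243 and 283 genes, 230 and 263 were at 0 in all 4 sgRAC1_2 libraries, and of the 497 and 457, 495 and 455 were at 0 in the sgRAC1_2 libraries used. Against clone 2 the count of 0 became 9 with all 12 libraries and ranged from 0 to 281 with single libraries left out. Against clone 3 the count of 3 became 0 with the replicate block, with a pseudocount of 0.1 and with no level filter, 21 with all 12 libraries, 5 with a pseudocount of 5 and 8 with the 5 TPM filter, and it ranged from 0 to 292 with single libraries left out: it was 265 and 292 without clone 1 replicate 1 and 2, and 0 without any 1 library of clone 2 or 3. Genes apart by at least 1 and higher numbered 645 by line means, 422 and 36 with pseudocounts of 0.1 and 5, 83 with the 5 TPM filter, 439 without clone 2, 471 without clone 3, 959 and 933 in the single batches and 316 to 748 with single libraries left out. Those lower numbered 377, 336 and 19, 79, 461, 366, 751 and 517, and 237 to 522; fewer libraries make it easier to be apart. The cause of the other shifts was not tested. RAC1 had a difference of -0.19, and of 0.058 without clone 2. RAC2 turned from -0.00 to 0.0012 with a pseudocount of 0.1, to 0.0091 and 0.032 with median-of-ratios and upper quartile scaling, to 0.24 without clone 3, to 0.10 in batch 2 alone and ranged from -0.12 to 0.12 with single libraries left out. RHOG turned to 0.049 in batch 1 alone, and RAC3 to -0.27 in batch 1 alone, with a range of -0.40 to 0.92 with single libraries left out. Same-numbered libraries of different clones did not deviate together (correlations of 0.07, -0.01 and 0.03), and the replicate block gave 0 calls between the guides, with a lowest adjusted p of 0.106. Chosen after seeing the data, other scalings gave 153 to 158 genes apart and higher on chromosome 9 from 80 Mb, and 178 to 203 with 1 sgRAC1_2 clone left out. Depth is unknown and limits the genes with few TPM most.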
